A study of Mus musculus with 2 samples.

Results

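Mmp8-high mature neutrophils of mouse alveolar bone were taken by a gate on unique molecular identifiers (UMIs, which count RNA molecules). A cell entered with at least 1 UMI of Csf3r, at least 2 of Mmp8, at most 1 of Asprv1, Hcar2 and Acod1 together, under 2% of its UMIs in Camp, Ngp and Ltf, and at most 1 UMI of C1qa, C1qb and C1qc. The gate found 102 of 21809 cells. Of these members, 45 were among the 9365 cells of library 1 (0.481%, 95% Clopper-Pearson interval 0.351 to 0.642%) and 57 among the 12444 cells of library 2 (0.458%, 0.347 to 0.593%). A cell was a barcode with at least 1000 UMIs and at most 20% of them mitochondrial. Since these genes chose the cells, their values below are a description and support nothing.

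The study moved the first upper molar of C57BL/6J mice, 6 to 8 weeks old, with a nickel-titanium coil spring that pulled at 25 g. Control mice carried the spring without force. At day 7 bone within 1 mm of the socket was pooled from 6 mice per group, out of 12 in all, digested for 60 min, and freed of red cells by lysis before single-cell RNA sequencing. The labels used here do not say which library is the force group, so library 1 and library 2 are set side by side and no effect of force was tested. All mice carried a spring and lost the molar before collection, and each library is 1 pool without replicates. Every interval is at the 95% level and covers counting error only.

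Neutrophils are made in bone marrow and fill their granules in a set order: azurophil granules first, then specific granules, then gelatinase granules. Mmp8 is the neutrophil collagenase, which cleaves fibrillar collagen and is packed into specific granules. Csf3r is the receptor for the growth factor that drives their production, and Cxcr2 is the chemokine receptor used to leave the marrow. Retnlg encodes a resistin-like secreted protein whose RNA is abundant in mature mouse neutrophils. Alveolar bone holds marrow spaces as well as the bone around the tooth root.

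The promoters of 3 of the 4 defining markers are shown because the gate rests on Mmp8, and Retnlg and Cxcr2 differ among the members that passed it. The sequences are from RefSeq on GRCm38.p6, each with 250 bases before and 50 after the gene's start. Mmp8 lies at chr9:7558179-7558478, Retnlg at chr16:48872358-48872657 and Cxcr2 at chr1:74153744-74154043, all on the plus strand. Capitals mark matches, on either strand, to the C/EBP letters TTGCNNAA or the PU.1 letters GAGGAA, motifs of factor families known from myeloid cells.

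Mmp8: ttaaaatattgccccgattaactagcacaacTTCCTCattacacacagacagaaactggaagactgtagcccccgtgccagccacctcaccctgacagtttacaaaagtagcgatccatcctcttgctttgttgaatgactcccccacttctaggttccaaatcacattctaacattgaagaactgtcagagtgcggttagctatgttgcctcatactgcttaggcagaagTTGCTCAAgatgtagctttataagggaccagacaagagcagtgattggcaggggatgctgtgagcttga
Retnlg: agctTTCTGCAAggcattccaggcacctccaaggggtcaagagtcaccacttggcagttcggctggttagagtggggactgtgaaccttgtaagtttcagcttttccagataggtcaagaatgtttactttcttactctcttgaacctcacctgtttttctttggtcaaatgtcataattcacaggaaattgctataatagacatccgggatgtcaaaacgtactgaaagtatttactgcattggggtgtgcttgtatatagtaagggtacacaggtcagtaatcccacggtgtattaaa
Cxcr2: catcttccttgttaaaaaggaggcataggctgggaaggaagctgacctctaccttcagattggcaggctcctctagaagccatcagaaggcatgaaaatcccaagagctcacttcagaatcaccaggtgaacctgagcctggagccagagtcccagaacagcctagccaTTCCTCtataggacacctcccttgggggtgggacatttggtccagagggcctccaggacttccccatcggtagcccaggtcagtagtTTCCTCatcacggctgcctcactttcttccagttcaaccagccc

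The Mmp8 window held 1 C/EBP match at bases 232 to 239 and 1 PU.1 match at bases 32 to 37, the Retnlg window 1 C/EBP match at bases 5 to 12, and the Cxcr2 window 2 PU.1 matches at bases 170 to 175 and 257 to 262. The C/EBP letters occurred in 10.8% of 32851 mouse promoters of this length and the PU.1 letters in 28.3%, so a match is common. No match overlapped another. The letters describe these windows and not the binding of a factor.

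The members were of more than one kind, and the label held for only a part of them. Of the 102 members, 64 had at least 10 UMIs of Retnlg and 38 had 6 or fewer. No member had 7 to 9. This split was chosen after the values were seen, and it is not a test. Of the 64, 60 held under 50 UMIs of every other cell type's marker list and are called Retnlg-rich members here (28 in library 1 and 32 in library 2). The other 4 also carried many UMIs of another list, such as 3261 stromal UMIs in one cell of library 1 and 1237 red-cell UMIs in one of library 2. The 38 others, 15 and 23 cells, are called Retnlg-poor members.

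Retnlg-rich members held 10 to 224 Retnlg UMIs (median 73.5) in library 1 and 13 to 183 (median 68) in library 2. Retnlg-poor members held 0 to 6 (median 1) and 0 to 5 (median 1). The alarmins S100a8 and S100a9, calcium-binding proteins that are abundant in neutrophils, took 5.78 to 29.0% of the UMIs of a Retnlg-rich member in library 1 (median 16.6%) and 9.50 to 32.3% in library 2 (median 18.6%). In Retnlg-poor members they took 0.0663 to 5.08% (median 0.230%) and 0.0540 to 5.90% (median 0.118%). For this pair the kinds did not overlap in library 2 or in library 1. Cxcr2 was detected in 19 of 28 and 28 of 32 Retnlg-rich members, and in 3 of 15 and 1 of 23 Retnlg-poor members.

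Most Retnlg-poor members carried monocyte markers. The list of Csf1r, Ccr2, F13a1, Ly6c2 and Ms4a6c summed to 0 to 104 UMIs per cell in library 1 (median 44) and 3 to 328 in library 2 (median 92). In Retnlg-rich members it summed to 0 to 10 (median 1) and 0 to 19 (median 2). At least 8 such UMIs were held by 12 of 15 and 22 of 23 Retnlg-poor members, and by 2 of 28 and 3 of 32 Retnlg-rich members. Over all cells they were held by 1401 of 9365 and 2322 of 12444, and by 71 of 255 and 208 of 391 late immature neutrophils (defined below). Such a count of whole UMIs is therefore not particular to the Retnlg-poor members. Ccr2, the chemokine receptor of inflammatory monocytes, stood at 449 and 477 CPM (UMIs of the gene per 1000000 UMIs) in Retnlg-poor members, and at 0 UMIs in Retnlg-rich members, which allows up to 66.4 and 50.3 CPM. F13a1, a clotting factor subunit made by monocytes, stood at 786 and 1016 CPM, against 0 UMIs in Retnlg-rich members of both libraries. Ly6c2 did not separate them so fully, at 3809 and 5578 CPM in Retnlg-poor members and 1081 and 1458 CPM in Retnlg-rich members. The data thus go against the label for most Retnlg-poor members, and no cell type name is given to them. Exceptions included a library 1 cell of 1201 UMIs, with 0 UMIs of the monocyte list, 1 of Cxcr2 and 5.08% of S100a8 and S100a9. A library 2 cell held 2 Cxcr2 UMIs and 5.90% of that pair, with 21 monocyte-list UMIs.

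In Retnlg-rich members the monocyte list summed to 1099 and 1499 CPM, of which Ly6c2 gave nearly all, and to 1082 and 1307 CPM in free RNA. The macrophage list summed to 18.0 and 40.9 CPM and the dendritic cell list to 0 UMIs in both libraries. The stromal list summed to 3998 and 2726 CPM, against 45339 and 38352 CPM in free RNA, and the red-cell list to 432 and 2753 CPM, against 6686 and 42480 CPM in free RNA. None of these lists held more than 37 UMIs in a single Retnlg-rich member.

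**Figure D1:**
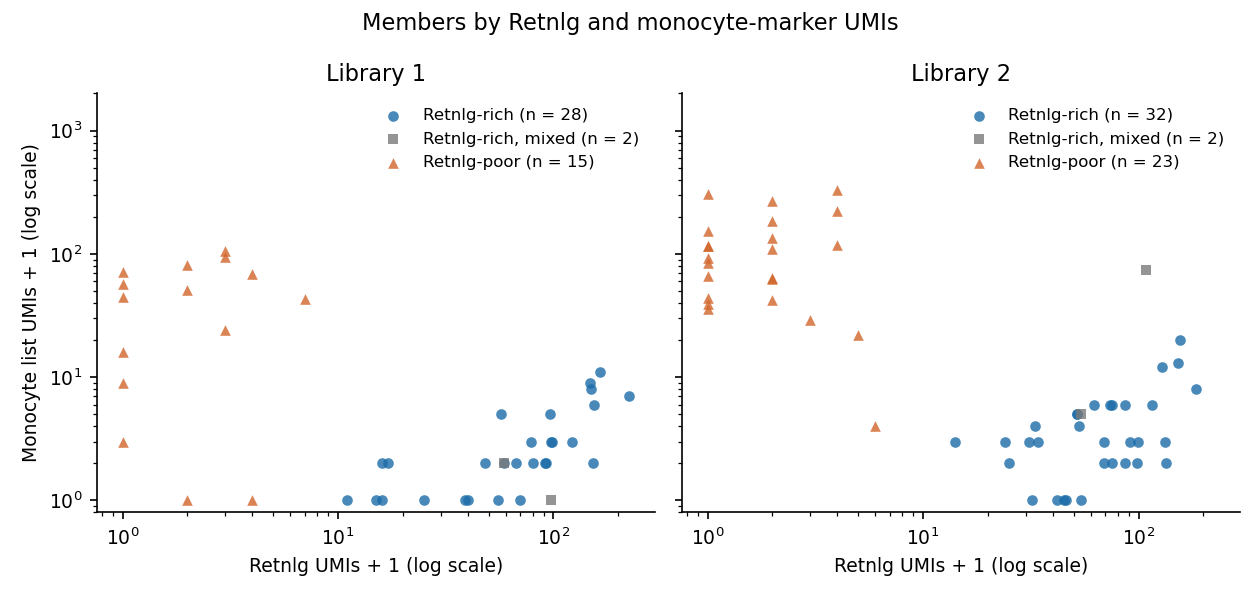
Each point is 1 member cell, with its Retnlg UMIs plus 1 on the x axis and its monocyte-list UMIs plus 1 on the y axis, both on log scales, for library 1 (left) and library 2 (right). Blue circles are Retnlg-rich members, grey squares the 4 members with many UMIs of another list, and orange triangles Retnlg-poor members. The Retnlg-rich members lie at the lower right, and most Retnlg-poor members at the upper left.

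Retnlg-poor members were the larger cells in UMIs. They held 1201 to 15705 UMIs (median 7912) in library 1 and 4532 to 29591 (median 10174) in library 2, against 1067 to 4302 (median 1867) and 1072 to 5241 (median 1974.5) in Retnlg-rich members. They were 33.3% and 40.4% of the members but gave 60.2% and 73.0% of the members' UMIs. Any level summed over all members therefore leans on them. Their Mmp8 stayed near the limit of the gate, at 2 to 4 UMIs (median 3) and 2 to 6 (median 2), against 2 to 12 (median 4) and 2 to 15 (median 5) in Retnlg-rich members. The gate counted whole UMIs, and the part of depth in which cells passed it was not tested.

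Some Retnlg-poor members carried RNA of other types. A cell of library 1 held 1706 UMIs of the stromal list and another 67 of the megakaryocyte list, and a cell of library 2 held 878 of the basophil list. Azurophil granule genes lay mostly in single cells: 1 cell gave 93.3% and 70.8% of the Retnlg-poor members' Mpo UMIs, the myeloperoxidase RNA of granulocyte precursors. Top2a, a topoisomerase of dividing cells, was spread over 5 and 11 of them, at 251 and 372 CPM, against 2 UMIs and 1 UMI in Retnlg-rich members. A doublet caller found 0 and 2 doublets by its automatic threshold, under 0.5% of cells, and these calls were not relied on. Among the 5% of cells with its highest scores were 3 and 6 members. The part of doublets in these values was not tested.

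Of the 1082 genes measured with at least 20 UMIs in either kind in each library, 117 (10.8%) were at least 2-fold higher in Retnlg-rich than in Retnlg-poor members in both libraries with a counting interval clear of 1. Another 353 (32.6%) were at least 2-fold lower, and without that interval 117 were higher and 393 (36.3%) lower. Since Retnlg of the same cells made the split, these counts are a description. The higher genes included 9 of 10 measured genes of the maturation list and all 4 measured chemoattractant receptors (Fpr1, Fpr2, C5ar1 and Ccr1, which sense formyl peptides, complement and chemokines). They also included 5 of 6 of the gelatinase and surface list, among them Mmp9, gelatinase B, at 1495 and 2085 CPM in Retnlg-rich members against 17.3 and 49.6 CPM in Retnlg-poor members. S100a8 stood at 101018 and 116400 CPM, against 5355 and 2338 CPM, of which a single Retnlg-poor cell gave 71.6% and 57.6%. Led by size, the higher genes were Retnlg, G0s2, S100a9, Mmp9, Mrgpra2b, Stfa2l1, Adpgk, Cxcr2, Lcn2 and S100a8, and the lower ones Crip1, Fn1, Ppia, F13a1, Ahnak, Lgals1, S100a4, Ifi207, Ctss and Ptma. The lower genes included 5 of 6 of the cell cycle list (Top2a, Tuba1b, Stmn1, Pcna and Ube2c). Lyz2, the myeloid lysozyme, was lower in Retnlg-rich members as well, at 3764 and 4239 CPM against 9001 and 14870 CPM.

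Across the classes of cell, Retnlg-rich members had Mmp8 at 2233 CPM (1857 to 2663) in library 1 and 2685 CPM (2323 to 3087) in library 2. Retnlg-poor members had 363 CPM (261 to 490) and 201 CPM (155 to 257). Activated neutrophils, which pass the same gate but carry at least 2 UMIs of Asprv1, Hcar2 and Acod1 and needed no Mmp8, had 852 and 1794 CPM. Late immature neutrophils (at least 1 UMI of Csf3r and of the neutrophil surface gene Ly6g, 2% or more granule RNA, and no Fcnb, a granule gene of earlier precursors) had 1141 and 1743 CPM. Both neutrophil groups were limited, as the Retnlg-rich members were, to cells with at least 10 Retnlg UMIs and under 50 of every other list, which left 962 and 635 activated and 196 and 329 late immature cells. Since 2 Mmp8 UMIs were required of the members alone, their higher level is part of their definition.

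Cells outside neutrophils had little Mmp8. The 441 and 616 cells with at least 3 UMIs of Ccr2 and F13a1 and under 10 of Retnlg that were no members had 44.3 and 20.4 CPM. B-lineage cells (at least 2 UMIs of Cd79a) had 8.56 and 4.79 CPM. Stromal cells (at least 20 UMIs of Col1a1, Col1a2 and Sparc together) had 7.18 and 4.56 CPM. Both classes were also limited to under 10 Retnlg UMIs and no UMI of Ccr2 or F13a1. Barcodes with 10 to 100 UMIs, which hold free RNA, had 118 and 132 CPM. With every cell thinned to 1000 UMIs, an Mmp8 UMI was found in 89.3% and 96.9% of Retnlg-rich members, 43.3% and 66.8% of activated and 56.1% and 68.1% of late immature neutrophils, and in 0.288% and 0.565% of B-lineage cells, which should lack the gene. The thinned share was 46.7% and 34.8% in Retnlg-poor members, which the gate fixed in part, and 5.90% and 3.25% in the monocyte-marker cells that were no members.

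The ratio of Mmp8 to Retnlg UMIs differed between the kinds by construction, since Retnlg split them after Mmp8 was required. Retnlg-rich members had 5.49 Mmp8 UMIs per 100 Retnlg UMIs (4.55 to 6.58) in library 1 and 8.23 (7.08 to 9.52) in library 2. Activated neutrophils had 3.78 and 6.57, late immature neutrophils 6.35 and 10.5, and free RNA 3.99 and 6.44. B-lineage cells had 3.74 and 3.90 and stromal cells 3.92 and 5.01. In library 2 the intervals of both lay below that of free RNA. Their limit of under 10 Retnlg UMIs helped to choose them, so these ratios are a description. Retnlg-poor members had 200 (116 to 356) and 241 (152 to 392), and the monocyte-marker cells outside the gate had 28.4 (24.6 to 32.7) and 30.2 (25.6 to 35.6). The monocyte-marker cells were limited to under 10 Retnlg UMIs and exclude members, so both genes helped to choose them and their ratio is a description as well.

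**Figure D2:**
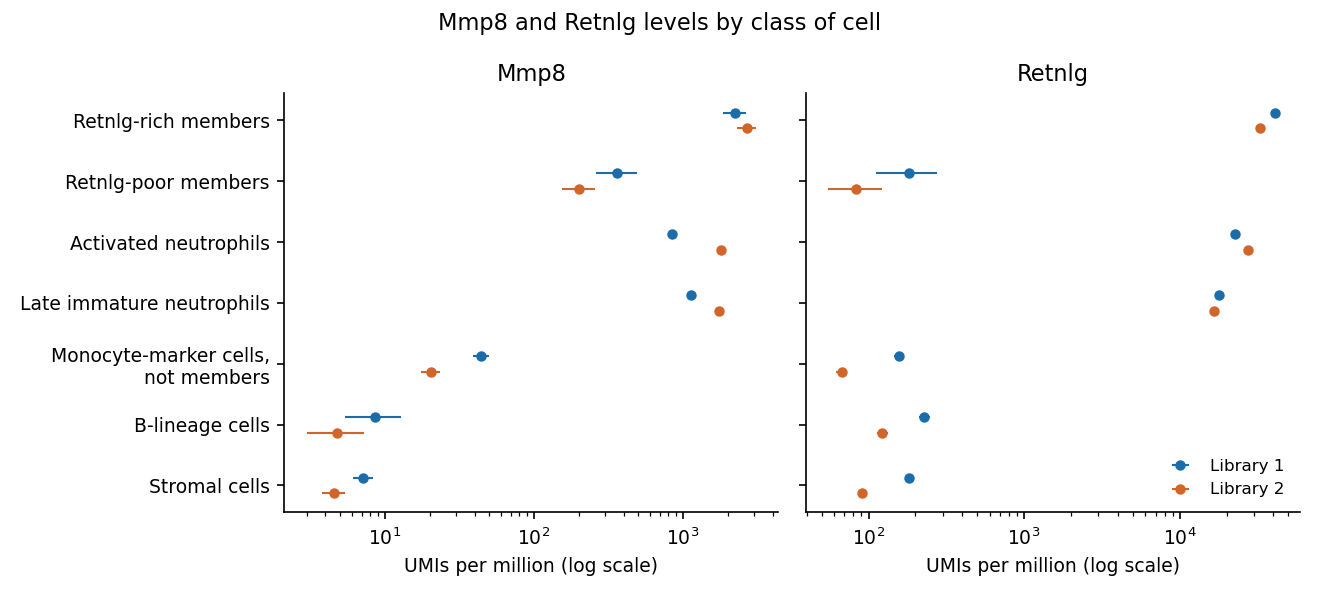
Mmp8 (left) and Retnlg (right) in CPM on a log scale, for 7 classes of cell from top to bottom, with library 1 in blue and library 2 in orange. Points are levels summed over cells and bars are exact Poisson 95% intervals. Mmp8 in Retnlg-rich members stood at 2233 and 2685 CPM, above every other class shown, as the gate required.

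At its edges the gate cut through a continuum. Of the members, 12 and 16 had exactly 2 Mmp8 UMIs, and 34 and 72 cells passed every other limit with 1. Similarly, 22 and 20 members had 1 UMI of the activated genes, and 25 and 35 cells that passed every other limit had 2. For granule RNA, 7 and 3 members stood at 1.5 to 2% and 4 and 9 cells stood just above, at 2 to 2.5%. Of 894 and 1135 cells with the required Csf3r and Mmp8, 534 and 543 failed on the activated genes alone and 66 and 165 on granule RNA alone.

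Against activated neutrophils, the closest type by the gate, Retnlg-rich members had 6 lower genes of the cytokine and chemokine list. No granule gene outside the gate met the 2-fold call. Of 5989 genes measured, 13 (0.217%) were at least 2-fold higher and 35 (0.584%) at least 2-fold lower in Retnlg-rich members in both libraries with an interval clear of 1. Without that interval 113 (1.89%) were higher and 682 (11.4%) lower. Leaving out, for each gene, the member cell with the most UMIs left 3 and 28 genes. These counts include genes of the gate, 1 of the 13 and 3 of the 35, whose levels the gate fixed in part. Outside the gate 12 and 32 genes were called, and 2 and 25 without the richest cell. The median log2 ratio of all genes measured was -0.36 in library 1 and -0.13 in library 2. A Retnlg-rich member had a lower median depth than an activated neutrophil (1867 and 1974.5 UMIs against 2365.5 and 2873).

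Genes of the cytokine and chemokine list made up the largest group of list genes that were lower. Of 17 measured genes of the cytokine and chemokine list, 6 were lower and 0 higher, and the list's median log2 ratio was -1.36 and -1.14. Il1b, the fever-inducing cytokine interleukin 1 beta, stood at 3134 and 2821 CPM in Retnlg-rich members, against 8071 and 5982 CPM in activated neutrophils. The ratio was 0.388 (0.333 to 0.451) in library 1 and 0.472 (0.409 to 0.541) in library 2. Cxcl2, a chemokine that draws neutrophils through Cxcr2, stood at 1945 and 1308 CPM, against 7732 and 5333 CPM, a ratio of 0.252 (0.206 to 0.304) and 0.245 (0.199 to 0.300). Il1b and Cxcl2 were lower in Retnlg-rich members in both libraries with similar ratios. The groups were split by Asprv1, Hcar2 and Acod1, so genes that vary together with these would differ through that choice of cells. Its part in the lower levels was not tested.

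At 1000 UMIs a cell, Il1b was found in 32.1% (15.9 to 52.4%) and 65.6% (46.8 to 81.4%) of Retnlg-rich members, against 85.8% and 81.1% of activated neutrophils. The share was lower than in activated neutrophils beyond counting error in library 1 and not in library 2. Cxcl2 was found in 46.4% (27.5 to 66.1%) and 37.5% (21.1 to 56.3%), against 81.9% and 71.3%, lower beyond counting error in both libraries. Part of the members thus held RNA of each gene.

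The other lower genes of this list were less abundant in the members. Ccl3 and Ccl4, chemokines for monocytes and other leukocytes, stood at 252 and 40.9 CPM against 1502 and 426 CPM, and at 378 and 164 CPM against 1223 and 790 CPM. The Ccl3 level in library 2 rested on 3 UMIs. Nlrp3, the inflammasome sensor that leads to release of interleukin 1 beta, stood at 252 and 259 CPM against 1227 and 570 CPM. Ccrl2, a surface receptor that presents the attractant chemerin, stood at 198 and 150 CPM against 1186 and 406 CPM. All 4 genes were lower in both libraries, with ratios of 0.0959 to 0.454.

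Tnf, the tumor necrosis factor gene, belonged to the same list and was not called. It stood at 648 and 177 CPM in Retnlg-rich members, with a ratio to activated neutrophils of 1.27 (0.885 to 1.77) and 1.38 (0.725 to 2.40). Osm, the cytokine oncostatin M, had ratios of 1.60 (1.22 to 2.07) and 0.883 (0.659 to 1.16), on opposite sides of 1. The lower level of the list was thus not shared by all of its genes.

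Among the survival and stress genes 3 of 11 were lower, with a list median log2 ratio of -1.40 and -1.02. Gadd45b, a stress-induced gene, stood at 738 and 191 CPM in Retnlg-rich members, against 1716 and 618 CPM in activated neutrophils. Pim1, a survival kinase, and Bcl10, a signalling adaptor of the NF-kB pathway, were the other 2, and neither passed without its richest member cell. That cell held only 3 of 19 and 6 of 36 Pim1 UMIs, and 2 of 8 Bcl10 UMIs in each library. Single genes of other lists were lower as well: Wfdc17, a small proteinase inhibitor homolog (180 and 436 CPM against 583 and 1011 CPM), Ifitm1, an interferon-induced membrane protein (198 and 300 CPM against 535 and 1190 CPM), and Vegfa, which rested on 2 UMIs and 1 UMI in the members. Among genes of no list, Tgif1, Slfn5, Atp1b3 and Rnf114 led the lower genes.

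Outside the genes of the gate, no granule or identity gene of the lists was called against activated neutrophils. Of the gate's own granule genes Ltf, lactoferrin, was higher, at 792 and 818 CPM against 220 and 350 CPM, with ratios of 3.60 and 2.34. None of the 5 azurophil, 12 specific granule, 8 gelatinase, 12 maturation, 9 chemoattractant receptor, 11 adhesion, 7 NADPH oxidase, 10 pattern receptor, 18 transcription factor, 8 cell cycle and 6 bone control genes measured passed in either direction. The Retnlg-rich members held 55525 and 73368 UMIs in all, against 2678822 and 2079009 in activated neutrophils. Many genes measured through the activated cells alone had too few expected member UMIs to be called lower. The missing calls thus do not show equal levels. Cxcr2 stood at 684 and 1240 CPM, against 645 and 950 CPM, with ratios of 1.06 (0.748 to 1.46) and 1.31 (1.05 to 1.61). Mmp9 had ratios of 2.10 (1.67 to 2.62) and 1.503 (1.27 to 1.77), and Lcn2, the iron-scavenging lipocalin of specific granules, 1.44 (1.30 to 1.60) and 1.22 (1.13 to 1.33). The intervals of both genes lay above 1 in each library, but neither gene reached 2-fold in library 2. S100a8 and S100a9 had ratios of 2.09 and 2.00 in library 1 and 1.195 and 1.31 in library 2.

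No functional list gene was called higher than in activated neutrophils. The 10 leading higher genes were C1d, Abhd2, Rbm33, Zfp654, Fbxo38, Ranbp9, Fbxo34, Tob1, Aldh3b1 and Fmo5. Of the genes outside the gate, Rbm33 and Psmb1 alone passed without the member cell holding the most UMIs. Tob1, a gene that restrains proliferation, stood at 558 and 245 CPM in Retnlg-rich members, against 116 and 97.6 CPM in activated neutrophils, and was lost in that way.

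Set against late immature neutrophils, the stage before, Retnlg-rich members had lower specific granule genes and higher Il1b. Of 4287 genes measured, 69 (1.61%) were at least 2-fold higher and 37 (0.863%) at least 2-fold lower in both libraries with an interval clear of 1. Without that interval 132 (3.08%) were higher and 331 (7.72%) lower. With median-of-ratios scaling in place of the UMI total, which moved the log2 ratios by -0.32 and -0.48, 24 were higher and 112 lower, so the balance of the directions depended on the scaling. All 37 lower genes and 24 of the 69 higher ones held under it. Without the richest member cell of each gene, 38 and 31 genes were called. Of the 37 lower genes, 5 were genes of the gate, which left 32 outside it, and 26 without the richest cell. The median log2 ratio of all genes measured was -0.22 in library 1 and 0.08 in library 2.

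Camp, Ngp and Ltf, the granule genes of the gate, stood at 2503 and 1268, 6502 and 5207, and 792 and 818 CPM in Retnlg-rich members, against 24428 and 28164, 33639 and 40892, and 7969 and 11331 CPM in late immature neutrophils. This follows from the gate. Among genes not used by the gate, 4 of 11 measured specific granule genes were lower and 0 higher, with a list median log2 ratio of -1.0004 and -0.89. Genes that vary together with Camp, Ngp and Ltf would differ through this choice of cells as well. These values are therefore a description, and the part of that choice was not tested. Lcn2 stood at 6682 and 8396 CPM, against 17571 and 19541 CPM, a ratio of 0.380 (0.342 to 0.422) and 0.430 (0.396 to 0.465). Chil3, a chitinase-like lectin, stood at 288 and 123 CPM, against 2472 and 2278 CPM, a ratio of 0.117 (0.0665 to 0.190) and 0.0539 (0.0246 to 0.102).

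The other 2 were Cybb, the catalytic subunit of the NADPH oxidase that makes superoxide (180 and 532 CPM against 1120 and 1112 CPM), and Lyz2 (3764 and 4239 CPM against 7530 and 9457 CPM). Lyz2 lay at the 2-fold limit, with ratios of 0.4998 and 0.448, and was lost without its richest member cell. That cell held 20 of 209 and 31 of 311 of its UMIs. Mmp8, also a specific granule gene but required by the gate, had ratios of 1.96 and 1.54. Pglyrp1, a bactericidal peptidoglycan-binding protein, and Hp, haptoglobin, both granule genes, had ratios of 0.814 and 1.06 and of 1.10 and 1.13. The lower level was thus not common to the whole list.

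Enzymes and regulators outside the granule list were lower too. Anxa1, annexin A1, a mediator that limits neutrophil entry, stood at 1261 and 1458 CPM in Retnlg-rich members, against 3028 and 3488 CPM in late immature neutrophils, with ratios of 0.416 (0.324 to 0.528) and 0.418 (0.342 to 0.506). Lta4h, the enzyme that makes the attractant leukotriene B4, stood at 54.0 and 81.8 CPM against 309 and 307 CPM, and Serpinb1a, an inhibitor of neutrophil proteases, at 90.05 and 68.2 CPM against 409 and 361 CPM. Other lower genes by the naming rule included Krt83, Ldhc, Plscr1, H2az1, Cox7a2 and Gca.

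Of 14 measured genes of the cytokine and chemokine list, 3 were higher (Il1b, Tnf and Ccl6) and 1 lower (Ccl3). Il1b stood at 3134 and 2821 CPM in Retnlg-rich members, against 912 and 723 CPM in late immature neutrophils, with ratios of 3.44 (2.90 to 4.05) and 3.90 (3.35 to 4.52). Ccl6, a chemokine of myeloid cells, stood at 774 and 709 CPM against 204 and 111 CPM, with ratios of 3.79 (2.66 to 5.30) and 6.39 (4.63 to 8.69). Ptgs2, the inducible cyclooxygenase of prostaglandin synthesis, stood at 378 and 204 CPM against 61.0 and 73.2 CPM. These 3 genes held under the other scaling. Il1b was therefore lower than in activated neutrophils and higher than in late immature ones. Ccl3 was lower than in late immature neutrophils as well, at 252 and 40.9 CPM against 693 and 226 CPM.

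Cxcr2, a defining marker that the gate did not use, stood at 684 and 1240 CPM, against 326 and 441 CPM in late immature neutrophils. Its ratios were 2.10 (1.46 to 2.94) and 2.81 (2.24 to 3.50), and the call was lost under the other scaling. Slc11a1, a metal transporter of phagosomes, stood at 414 and 232 CPM against 138 and 114 CPM, and Lyst, a regulator of lysosome and granule size, at 720 and 450 CPM against 230 and 218 CPM. Tnf stood at 648 and 177 CPM against 211 and 66.0 CPM. All 3 calls were lost under the other scaling. Oasl1, Egr1 and Atf3 were also called, with 1 member cell giving 72.7 and 71.4%, 58.8 and 36.8%, and 75.0 and 42.9% of their UMIs in the members.

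Genes of no list that held both under the other scaling and without the richest cell included Dusp1, a phosphatase that switches off MAP kinases, at 1153 and 1254 CPM against 290 and 340 CPM. They also included Klra2, a lectin-like receptor (234 and 164 CPM against 40.7 and 26.3 CPM), Cyp4f18, an enzyme that inactivates leukotriene B4 (396 and 341 CPM against 105 and 82.5 CPM), and Tgfbi, an extracellular matrix protein (180 and 491 CPM against 43.9 and 55.2 CPM). Ccpg1, among the 10 leading higher genes, held likewise. Zbtb20, Ddit4 and Gcnt1, also among the 10, were lost without the richest cell, and Zbtb20 was lost under the other scaling too. Late immature cells were not limited in the activated genes, and their median depth was 4353.5 and 5333 UMIs.

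**Figure D3:**
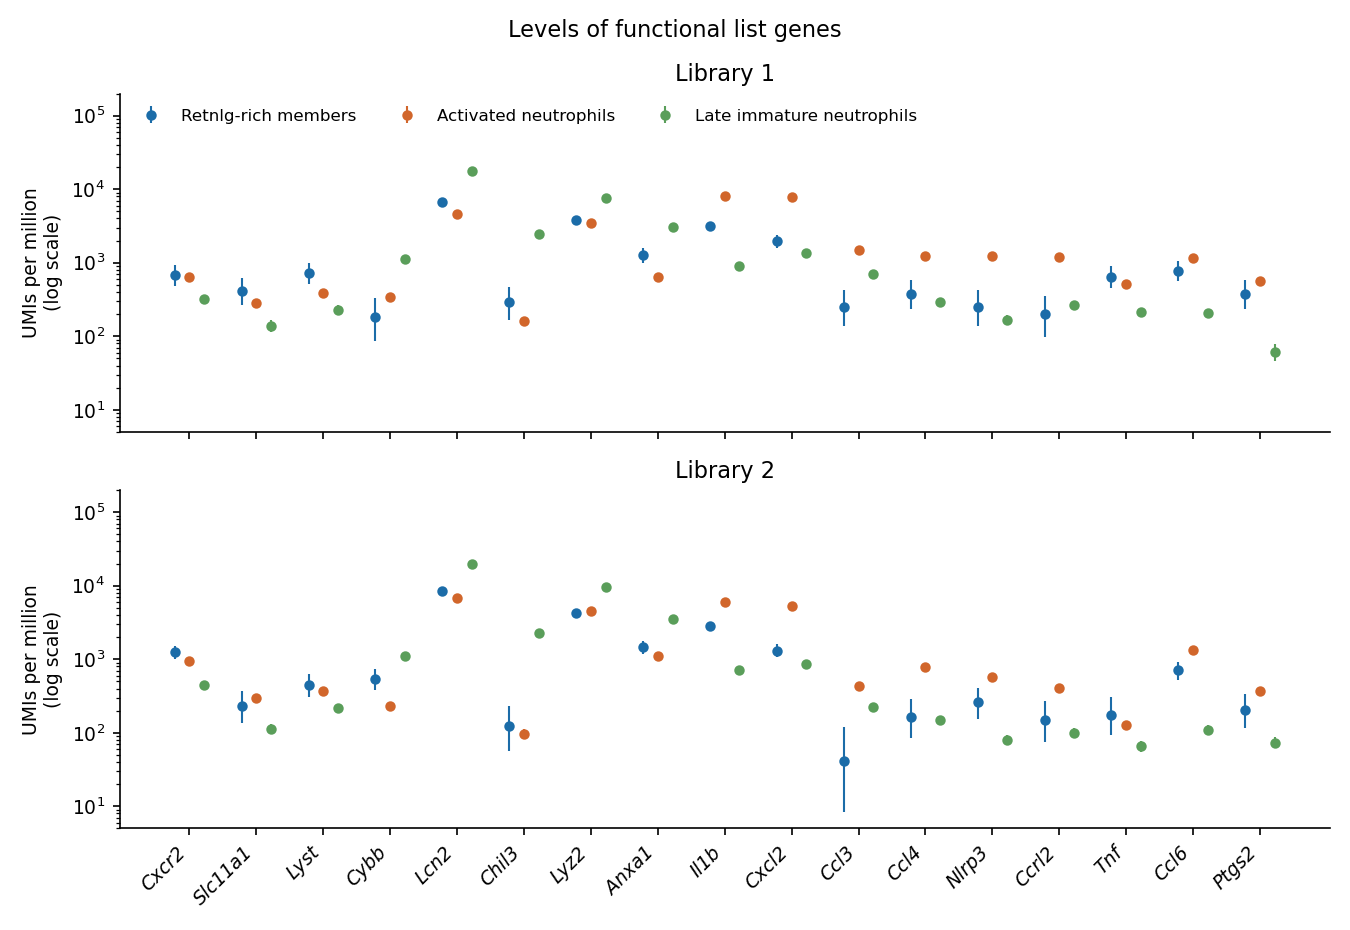
Levels of 17 functional list genes in CPM on a log scale, in library 1 (top) and library 2 (bottom), for Retnlg-rich members (blue), activated neutrophils (orange) and late immature neutrophils (green). Points are levels summed over cells and bars are exact Poisson 95% intervals. Il1b in Retnlg-rich members, at 3134 and 2821, lies below activated and above late immature neutrophils, while Lcn2 and Chil3 lie below late immature neutrophils.

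Residual granule RNA varied among the Retnlg-rich members. Camp, Ngp and Ltf took a median of 0.792% and 0.670% of their UMIs. Members under 0.5% numbered 7 and 14, and those at 0.5 to 2% numbered 21 and 18. Of only 214 genes measured, 2 (0.935%) were higher and 6 (2.8%) lower, with an interval clear of 1 (2 and 7, or 3.27%, without it), in the members with little granule RNA, and 3 of the lower ones were the granule genes themselves. Cxcl2 was higher, at 3552 and 1878 CPM against 1414 and 930 CPM, and so was Dusp1, at 2247 and 2117 CPM against 791 and 680 CPM. Both are genes that respond rapidly to stimulation. Over all Retnlg-rich members, 1 cell gave 33 of 108 and 17 of 96 Cxcl2 UMIs, and 15 of 64 and 13 of 92 Dusp1 UMIs. The 7 and 14 members with little granule RNA held only 13795 and 29281 UMIs in all. In which group the richest cells lay is not given. The calls of this comparison were not repeated without them, so they may rest on single cells.

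The other 3 lower genes encode heat shock proteins. Hspa8 stood at 942 and 444 CPM in members with little granule RNA, against 3786 and 1747 CPM in those with more. A single cell gave 31 of 171 and 26 of 90 of its UMIs over all Retnlg-rich members. Hsp90aa1 and Hspa1a leaned on single cells, with 1 cell giving 34.5 and 27.7% and 45.4 and 75.8% of their UMIs over all Retnlg-rich members. Retnlg was within counting error of equal between these groups in library 1 and slightly higher with little granule RNA in library 2, with ratios of 0.995 (0.903 to 1.10) and 1.10 (1.02 to 1.198). Cxcr2 had ratios of 1.23 (0.552 to 2.57) and 1.61 (1.04 to 2.48), so its difference was within counting error in library 1.

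Summed over all 102 members, the comparisons led to other genes. Here the Retnlg-poor members gave most of the members' UMIs. The reference groups changed as well, being no longer limited by Retnlg UMIs or by the other lists. The share of each change in the result was not tested. Against activated neutrophils of any Retnlg level (1753 and 1066 cells), 219 of 11524 genes (1.9%) were higher and 982 (8.52%) lower, and 107 (0.928%) and 101 (0.876%) had an interval clear of 1. Hpgd, Gprc5a and Tmem106a were among the leading higher genes, and the granulocyte precursor genes Ms4a3, Fcnb, Elane and Mpo were among the leading lower ones. In this wider activated group, which held cells of any kind that passed its gate, Elane stood at 1713 and 4646 CPM and Mpo at 2270 and 5472 CPM. Against late immature neutrophils (255 and 391 cells), 730 of 5189 genes (14.1%) were higher and 291 (5.61%) lower, and 660 (12.7%) and 234 (4.51%) were clear of 1. The 10 leading higher genes were F13a1, Ccr2, Ms4a6c, Ly86, Pld4, Itgb7, Fn1, S100a4, Vcan and Crip1, of which F13a1, Ccr2 and Ms4a6c are on the monocyte list. F13a1 and Ccr2 were at 0 UMIs in Retnlg-rich members, so they came from the other members. Between all members with little and more granule RNA, 273 of 1162 genes (23.5%) were higher and 66 (5.68%) lower, against 2 and 7 of 214 in the Retnlg-rich members. With an interval clear of 1 these were 215 (18.5%) and 65 (5.59%) over all members, against 2 and 6 in the Retnlg-rich members. The leading higher genes were again Crip1, F13a1 and Fn1, and the leading lower ones Lcn2, Mmp9 and S100a9, which separate the Retnlg-poor from the Retnlg-rich members.

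Between the libraries, 124 of 613 measured genes were 2-fold apart in Retnlg-rich members, in both directions. This sets 1 pool beside another, and neither the force nor the pool nor the handling can be told apart as its source. Of these genes, 64 (10.4%) were at least 2-fold higher and 60 (9.79%) at least 2-fold lower in library 1 than in library 2 with an interval clear of 1, and without that interval 64 and 77 (12.6%). Without the cell with the most UMIs of the gene, 35 and 40 remained 2-fold apart. Activated neutrophils were 2-fold apart the same way for 15 and 7 of these genes. A gene could be measured here through 1 library alone, as with Zfp622 (22 and 1 UMIs) and Rnf144a (2 and 22). Such genes passed through the library where they were higher, so these counts are a description. The genes named here were picked from the 124 after their values were seen.

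Jun, an immediate early transcription factor, stood at 3746 CPM in library 1 against 477 CPM in library 2, a ratio of 7.85 (5.47 to 11.6). Without the richest cell its ratio was 5.51, and in activated neutrophils it was 2.25. Fos, its partner, stood at 3782 against 1336 CPM (ratio 2.83, 2.22 to 3.64), with a ratio of 0.968 in activated neutrophils. The heat shock genes Hsp90aa1 and Hspa1a stood at 6520 against 641 CPM and 2341 against 450 CPM. A single cell of library 1 gave 125 of 362 Hsp90aa1 UMIs, and the ratio of 10.2 was 6.66 without it. Single cells gave 59 of 130 Hspa1a UMIs in library 1 and 25 of 33 in library 2, and the ratio of 5.21 was 2.84 without the richest cell. The source of these differences was not tested.

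Tnfaip3, a feedback inhibitor of NF-kB signalling, stood at 1369 against 177 CPM (ratio 7.72, 4.26 to 15.2), and Nfkbia, the NF-kB inhibitor, at 3638 against 1295 CPM (ratio 2.81, 2.19 to 3.62). In activated neutrophils these ratios were 3.11 and 1.86. Bcl3, a member of the same inhibitor family as Nfkbia, was lower in library 1, at 126 against 341 CPM (ratio 0.370, 0.135 to 0.880). Tnf had a ratio of 3.66 in Retnlg-rich members and 3.98 in activated neutrophils, and Fpr1, a formyl peptide receptor, 2.84 and 2.12. For Tnfaip3, Tnf and Fpr1 activated neutrophils were 2-fold apart in the same direction. Cxcl10 stood at 558 against 27.3 CPM, but 25 of its 31 UMIs came from 1 cell.

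Other genes were lower in library 1. Rac2, a small GTPase of neutrophil movement and oxidase assembly, stood at 468 against 1349 CPM, a ratio of 0.347 (0.216 to 0.539). Cdc42, another such GTPase, stood at 342 against 886 CPM. In activated neutrophils the ratio was 0.574 for Rac2 and 0.971 for Cdc42, so neither was 2-fold apart there. Lrg1, a secreted glycoprotein also found in granules, stood at 252 against 804 CPM, with a ratio of 0.212 in activated neutrophils. Hbb-bs, a haemoglobin gene, stood at 162 against 1240 CPM, and the red-cell list in free RNA stood at 6686 against 42480 CPM, the same way round. Over all members, 220 of 3898 genes (5.64%) were at least 2-fold higher in library 1 and 630 (16.2%) lower, of which 459 (11.8%) were clear of 1.

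**Figure D4:**
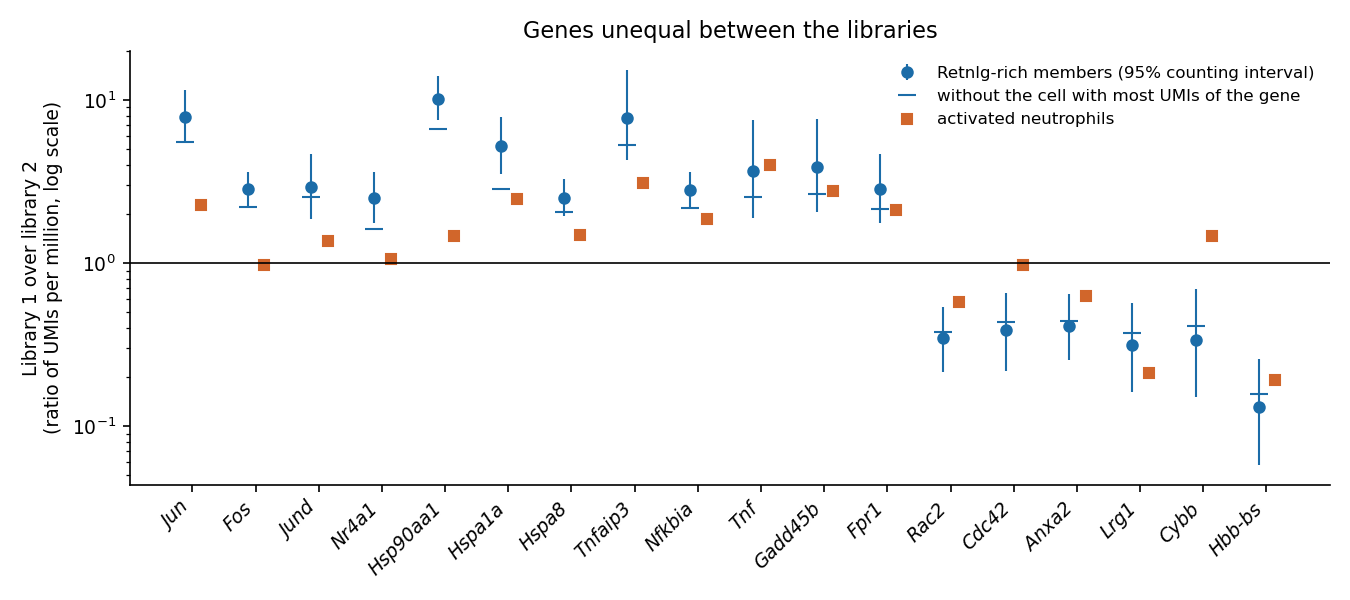
Ratio of library 1 over library 2 on a log scale for 18 genes in Retnlg-rich members (blue points, with 95% counting intervals), the same ratio without the cell with most UMIs of the gene (blue dashes), and in activated neutrophils (orange squares). Jun, Hsp90aa1 and Tnfaip3 lie highest, at 7.85, 10.2 and 7.72, and Hbb-bs lowest, at 0.131. The line at 1 marks equal levels.

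Interferon-induced genes were found in part of the members. Counting cells with at least 3 UMIs over 10 such genes, 29 of 45 members (64.4%, 48.8 to 78.1%) in library 1 and 28 of 57 (49.1%, 35.6 to 62.7%) in library 2 were positive. The measure is a range and not a type, since 18 and 21 members held 2 to 4 of these UMIs. Among Retnlg-rich members 17 of 28 (60.7%) and 11 of 32 (34.4%) were positive. At 1000 UMIs a cell the shares were 50% (30.6 to 69.4%) and 18.8% (7.21 to 36.4%) in Retnlg-rich members, and 6.67% and 0% in Retnlg-poor members. Retnlg-poor members had more UMIs, and their share at full depth rested on that.

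Activated neutrophils had thinned shares of 40.1% (37.0 to 43.3%) and 19.1% (16.1 to 22.3%), inside the intervals of the Retnlg-rich members. Late immature neutrophils had 16.3% and 3.34%. The interferon genes summed to 1945 CPM (1596 to 2348) and 968 CPM (756 to 1221) in Retnlg-rich members, against 4191 and 1417 CPM in activated and 1526 and 397 CPM in late immature neutrophils. All these values were higher in library 1, and so were those of B-lineage cells, at 15.1 against 1.70% of cells and 1186 against 215 CPM. The values of B-lineage cells thus differed between the libraries in the same direction. B-lineage cells also held UMIs of the neutrophil gene Retnlg, in 48.4% of cells in library 1 and 28.8% in library 2. In free RNA the interferon-induced gene Oasl1 stood at 139 against 31.0 CPM, the same way round. The part of free RNA in the B-lineage values was not tested.

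**Figure D5:**
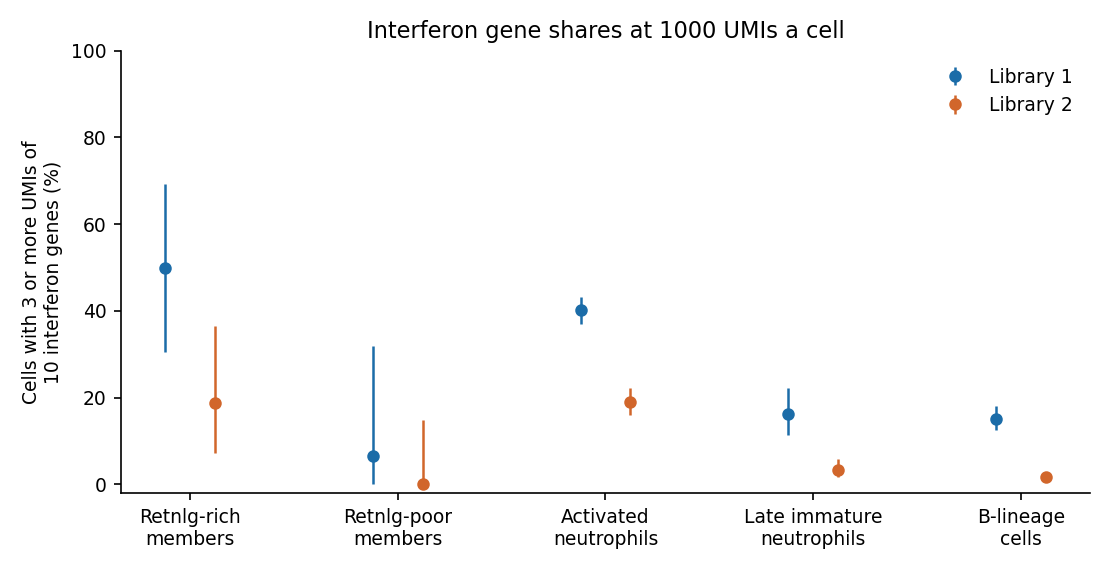
Share of cells, in percent, with at least 3 UMIs over 10 interferon-induced genes after thinning each cell to 1000 UMIs, for 5 classes of cell, with library 1 in blue and library 2 in orange. Bars are exact binomial 95% intervals. Retnlg-rich members stand at 50% and 18.8%, close to activated neutrophils at 40.1% and 19.1%, and B-lineage cells show the same direction between the libraries.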

How the data were processed

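The deposited files held raw UMI counts per gene and barcode as unfiltered matrices, 1 for each of 2 libraries made with the GEXSCOPE kit, per the labels' protocols. For the authors' aligner, counter and gene models, the tool is not given in the sources used here. FastQC 0.11.9 and the builds GRCh38 and mm10 appear, without roles, per the submitters' processing notes. The 57126 features with a mouse gene identifier, out of 99819, were kept, and they held 77572847 UMIs in library 1 and 116775367 in library 2. Counts of 230 symbols given to more than one identifier were summed. No source says which library is force or control, so both libraries are in no group.

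Cell classes were cut by UMI gates. UMIs were summed per class and library, given as CPM (UMIs per 1000000), and compared within a library, with exact Poisson intervals for levels, exact conditional binomial intervals for ratios and Clopper-Pearson intervals for shares. No p-value was computed, since cells of 1 pool are not replicates. A gene was measured with at least 20 UMIs in either class in each library, and called at a ratio of at least 2 or at most 0.5 in both libraries. Between the libraries, at least 20 UMIs in 1 of them were enough. The calculation was tested on simulated data. Genes are named by the size of their smaller log2 ratio, 10 per direction, and up to 4 per functional list among called genes, while other list genes are given by role. The members and the 17 functional lists of 194 genes were chosen with earlier results of these data known, and 2 list symbols were not matched. The split by Retnlg, the limit of 50 UMIs on other lists, the counting-interval rule, the removal of the richest cell and the rescaling of that subset were chosen after seeing the data. The libraries shared 75 cell barcodes, none of them of members. Doublets were scored with Scrublet in scanpy 1.11.5, and none were removed from the values given here. NumPy 2.4.6, SciPy 1.17.1 and pandas 2.3.3 were used under Python 3.11.15, with matplotlib 3.10.9. Genes with near-identical copies, such as haemoglobin, Ifit and Stfa genes, may share reads and are uncertain. A gene that the naming rule selected is not reported here.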

Additional observations from a re-analysis of the deposited data

Results flagged for a closer look

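The features without a mouse gene identifier were used in no comparison and held UMIs in the members. They took 0.831% of the members' UMIs in library 1 (1610 of 193785, 0.791 to 0.872%) and 0.477% in library 2 (2117 of 444128, 0.457 to 0.497%), above the 0.00155% and 0.000675% that a count of 0 allows. Over all barcodes they took 0.602% and 0.431%.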

How the results depend on the processing

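The counts were limited by depth and by how the members were chosen. The cause of each change below was not tested, except that fewer cells or genes enter under a higher minimum, in thinned cells and in the Retnlg subsets. Members numbered 45 in library 1, against 27 at a minimum of 2000 UMIs per cell, 25 with cells thinned to 1000 UMIs and 28 as Retnlg-rich. In library 2 they numbered 57, against 34 with at least 10 Retnlg UMIs and 32 as Retnlg-rich. The interferon-positive share was 64.4% in library 1 and 44.0% in thinned cells, and it was 49.1% in library 2, 16.2% in thinned cells and 34.4% in Retnlg-rich members.

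Over all members, 219 genes were higher than in activated neutrophils. They numbered 16 in thinned cells, 124 at a minimum of 50 UMIs, 435 without a minimum, and 1216 and 945 in library 1 and library 2 alone. The 982 lower genes numbered 161, 592, 6586, 3902 and 2179 under the same settings. The 730 genes higher than in late immature neutrophils numbered 11 in thinned cells, 332 at a minimum of 50, 3135 without a minimum, 301 under median-of-ratios scaling and 2378 in library 2 alone. The 291 lower genes numbered 15 in thinned cells, 1722 without a minimum, 754 under that scaling, and 759 and 695 in each library alone. The 273 genes higher with little granule RNA numbered 131 at a minimum of 3 Mmp8 UMIs, 0 in thinned cells, 109 at a minimum of 50, 3037 without a minimum, and 536 and 1439 in each library alone. The 66 lower ones numbered 2 in thinned cells, 29 at a minimum of 50, 625 without a minimum, and 137 and 303 in each library alone. The 850 genes unequal between the libraries numbered 97 in thinned cells, 257 at a minimum of 50 and 7484 without a minimum.

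With at least 10 Retnlg UMIs in the cells of both groups, 121 genes were higher than in activated neutrophils, 131 higher than in late immature ones, 2 and 12 higher and lower with little granule RNA and 377 unequal between the libraries. In Retnlg-rich members these were 113, 132, 2, 7 and 141. With an interval clear of 1, all members gave 107 higher and 101 lower than activated neutrophils. That rule with at least 10 Retnlg UMIs gave 9 and 48 against activated neutrophils, 67 and 68 against late immature ones, 2 and 8 by granule RNA and 342 unequal. In Retnlg-rich members it gave 13 and 35, 69 and 37, 2 and 6, and 124. With median-of-ratios scaling as well it gave 13 and 36, 24 and 112, 1 and 9, and 120. Without the richest member cell of each gene it gave 3 and 28, and 38 and 31. All these counts include the genes of the gate that were called.

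Of 333 alternatives for single named genes, 254 stayed within the main value's counting error, 72 moved and 7 changed direction, while 252 others had under 3 UMIs and were not given. The changed mean log2 ratios were those of Elane against activated neutrophils (1.24 in thinned cells and 0.88 in Retnlg-rich members), Nkg7 against activated neutrophils (0.67 with at least 10 Retnlg UMIs), Crip1 against late immature neutrophils (-0.20 with at least 10 Retnlg UMIs), Pilrb2 against late immature neutrophils (0.13 in thinned cells), and Retnlg with little granule RNA (0.068 in Retnlg-rich members). In Retnlg-rich members Hspa1a, lower with little granule RNA, had 0.16 without the limit of 50 UMIs on other lists. No paired analysis was possible because each library is 1 pool with no replicates and no group. Leaving out a replicate was not run for the same reason.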
